A study of Homo sapiens with 16 samples.

Results

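The mitosis genes are 43 human genes whose products drive entry into mitosis, build the spindle, tie chromosomes to it and divide the cell. They were taken by symbol from a list of G2/M regulators and of spindle and kinetochore genes that was drawn up with earlier results of these data known; the rule itself reads no measured value. All 43 were found among the 56832 gene names of the count table, and all 43 passed the filter on low counts that left 23100 genes for testing. Their smallest count in any library was 266, for CENPA. RNA was sequenced from H69M and H69, 2 human small cell lung cancer lines kept in the same medium. Each line carried, after lentiviral infection, a stable short hairpin RNA against EIF6 (sheIF6) or the hairpin labelled shNTC, whose cells are given as wild type. From each of the 4 stable lines, polysomal RNA (from sucrose fractions after polysome profiling, thus from mRNAs carrying several ribosomes) and cytoplasmic RNA (from a hypotonic lysate made with detergent and the translation blocker cycloheximide) were sequenced, with 2 libraries a group. That gives H69M sheIF6, H69M shNTC, H69 sheIF6 and H69 shNTC in each fraction, 8 groups and 16 libraries. The labels do not give the relation of H69M to H69, nor whether a stable line is 1 clone or a replicate a separate culture, so any p-value here covers only the spread among these libraries, which may be technical. The product of EIF6 acts in making the large ribosomal subunit and, while bound there, blocks the joining of both subunits.

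Entry into mitosis is driven by CDK1, a kinase that works only when bound to cyclin A or cyclin B and after CDC25 phosphatases have removed its inhibitory phosphates. The Aurora and Polo-like kinases then shape the spindle, the checkpoint proteins hold the anaphase-promoting complex in check until every kinetochore is attached, and CDC20 and UBE2C let that complex destroy securin (PTTG1) and the B cyclins. Most of these genes are transcribed in one wave in G2, under FOXM1 and the MuvB complexes, and their mRNAs are scarce in cells in G1. In bulk RNA a lower level of such an mRNA can come from fewer cells in G2 and mitosis or from less of it per cell, and the 2 cannot be told apart in any of the results that follow.

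The promoters of many of these genes share a short element, the cell cycle genes homology region (CHR, with the letters TTTGAA or, as a variant, TTTAAA), together with CCAAT boxes, which are read by NF-Y. RefSeq promoter windows (build GRCh38.p14, 250 bases before to 50 after the start) were found for 36 of the 43 genes, in 46 windows, since 6 genes had more than 1. Searched on both strands, TTTGAA was present in 65.2% of the 46 windows and in 15.2% of 35116 windows of all genes. TTTAAA was present in 34.8% and 12.2%, and CCAAT in 76.1% and 34.6%. TTTGAA or TTTAAA was present in 80.4% of the mitosis gene windows and in 24.0% of all windows. Either CHR letter string stood together with CCAAT in 63.0% of the mitosis gene windows and in 9.27% of all windows. Taken by gene, 33 of the 36 had TTTGAA or TTTAAA in at least 1 window, a count without a matching share of all genes. The windows of TTK, AURKA, BIRC5, TPX2, UBE2C, BUB3 and FOXM1 were not analysed here. A match is a description of these letters and not a site shown to be used. The sequences of 4 promoters follow: CDC20 and KIF20A, which were among the 3 highest knockdown values in H69M in both fractions, ANLN, which had the lowest, and PLK1, the kinase for which such a promoter is a textbook case; they were picked after the values were seen. Capitals mark TTTGAA or TTTAAA or the CCAAT box on either strand (TTCAAA and ATTGG are TTTGAA and CCAAT on the opposite strand).
CDC20, chr1:43358731-43359030, + strand: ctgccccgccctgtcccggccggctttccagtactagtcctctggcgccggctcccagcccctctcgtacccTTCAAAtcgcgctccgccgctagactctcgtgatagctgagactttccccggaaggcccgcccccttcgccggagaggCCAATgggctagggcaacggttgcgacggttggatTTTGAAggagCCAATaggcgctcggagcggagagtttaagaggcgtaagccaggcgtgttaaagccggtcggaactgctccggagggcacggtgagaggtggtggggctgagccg
KIF20A, chr5:138178862-138179161, + strand: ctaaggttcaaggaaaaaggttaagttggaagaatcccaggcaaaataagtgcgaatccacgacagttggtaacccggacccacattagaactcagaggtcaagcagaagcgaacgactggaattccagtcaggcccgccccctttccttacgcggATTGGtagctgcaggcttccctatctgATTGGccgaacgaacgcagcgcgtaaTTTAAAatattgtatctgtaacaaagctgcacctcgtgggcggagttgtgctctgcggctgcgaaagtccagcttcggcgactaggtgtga
PLK1, chr16:23678639-23678938, + strand: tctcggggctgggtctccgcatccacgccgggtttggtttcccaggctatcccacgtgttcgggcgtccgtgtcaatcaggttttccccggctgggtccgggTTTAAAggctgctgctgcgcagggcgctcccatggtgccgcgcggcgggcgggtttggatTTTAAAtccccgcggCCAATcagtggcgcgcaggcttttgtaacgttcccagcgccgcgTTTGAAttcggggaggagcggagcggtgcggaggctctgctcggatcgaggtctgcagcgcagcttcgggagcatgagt
ANLN, chr7:36389612-36389911, + strand: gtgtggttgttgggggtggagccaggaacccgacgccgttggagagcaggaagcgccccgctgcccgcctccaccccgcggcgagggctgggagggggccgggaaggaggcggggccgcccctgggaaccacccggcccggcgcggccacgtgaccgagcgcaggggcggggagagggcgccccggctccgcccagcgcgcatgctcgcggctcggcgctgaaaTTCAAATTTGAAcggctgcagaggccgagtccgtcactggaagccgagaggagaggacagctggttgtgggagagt
In CDC20 the TTTGAA at -65 relative to the start lay just before a CCAAT box at -55. In KIF20A, TTTAAA lay at -41 downstream of 2 CCAAT boxes on the opposite strand. In PLK1, TTTGAA lay at -29 and a CCAAT box at -73, with 2 TTTAAA further upstream. ANLN held 2 TTTGAA, back to back at -26 and -20 on opposite strands, and no CCAAT.

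Library totals ran from 36005326 to 87269772 counts, and replicates of log2 CPM (the count relative to its TMM-scaled library total, the unit of levels throughout) correlated at 0.951 to 0.982. Both extremes were in H69M cytoplasmic RNA, with 87269772 and 60662256 counts in sheIF6 against 36005326 and 37527469 in shNTC. Depth thus ran with the hairpin in that comparison, and its part was not tested. EIF6 itself had 86.3 and 136 CPM in H69M sheIF6 against 323 and 202 CPM in shNTC polysomal RNA, and 161 and 96.3 CPM against 204 and 165 CPM in cytoplasmic RNA. In H69 it had 234 and 220 CPM against 424 and 389 CPM on polysomes and 65.0 and 67.7 CPM against 116 and 112 CPM in the cytoplasm. The groups did not overlap in any of these (log2 -1.24 and -0.52 in H69M polysomal and cytoplasmic RNA, -0.84 and -0.78 in H69), without passing the limit of 0.05 on the adjusted p in edgeR. The H69M polysomal change of EIF6 passed by DESeq2 (adjusted p = 0.0149). Among neuroendocrine markers, INSM1 ran from 1.15 to 256 CPM in H69M and from 857 to 2351 CPM in H69, CHGA from 0.675 to 26.2 CPM and from 93.3 to 514 CPM, SYP from 7.41 to 48.4 CPM and from 99.1 to 287 CPM, NCAM1 from 112 to 240.2 CPM and from 197 to 274 CPM, and NEUROD1 from 0 to 3.19 CPM and from 3.43 to 10.7 CPM. Non-neuroendocrine markers (YAP1, REST, VIM, AXL, CD44) summed to 2765 to 5191 CPM in H69M and 78.9 to 253 CPM in H69. COL1A1, PDGFRB and DCN, fixed as fibroblast markers, summed to 6302 to 19144 CPM in H69M and at most 2.95 CPM in H69, and the immune markers PTPRC, CD3E and CD68 to at most 1.46 CPM in any library. Of these 5 neuroendocrine markers, NCAM1 was the one whose ranges overlapped between the lines, and the others were lower in every H69M library than in any H69 library. In H69M the libraries numbered 2 stood apart from those numbered 1: INSM1 was at 256 and 6.38 CPM in shNTC polysomal replicates 2 and 1, and 28.4 and 1.15 CPM in shNTC cytoplasmic replicates 2 and 1. The mRNAs encoded in mitochondria, which cytoplasmic ribosomes do not translate, summed to 2773 and 12444 CPM in H69M shNTC polysomal RNA against 21864 and 33209 CPM in cytoplasmic RNA, and to 3232 and 7337 CPM against 37833 and 31538 CPM in H69 shNTC. In sheIF6 polysomal RNA they summed to 9348 and 14954 CPM in H69M and to 3664.5 and 11697 CPM in H69. In sheIF6 cytoplasmic RNA these sums were 39455 and 28858 CPM and 37421 and 43372 CPM. On polysomes sheIF6 was thus above shNTC at each replicate number in both lines. The part of this in the comparisons that use polysomal RNA was not tested.

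The mitosis genes together took 3765 to 8288 CPM of a library. Per kilobase of annotated exons, in shNTC cytoplasmic RNA, TPX2 (which activates Aurora A on spindle microtubules) was highest in H69M at 76.2 CPM per kilobase, with 86.8 in H69, and NUSAP1 (a microtubule-bundling protein) was highest in H69 at 113, with 57.5 in H69M. CENPE, the kinetochore motor, was lowest in both lines, at 4.28 CPM per kilobase in H69M and 5.14 in H69. Strand was not given for the counting, so overlapping genes can share or lose reads. Other genes overlapped over 10% of the exonic bases of 6 of the 43 genes, with 62.2% in NUSAP1 and 58.4% in PRC1. KIF4A and PTTG1 have intronless near copies (KIF4B and PTTG2), and 8 genes have pseudogenes of their own name, 4 of them for UBE2C, so counts of these genes are less certain.

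**Figure D1:**
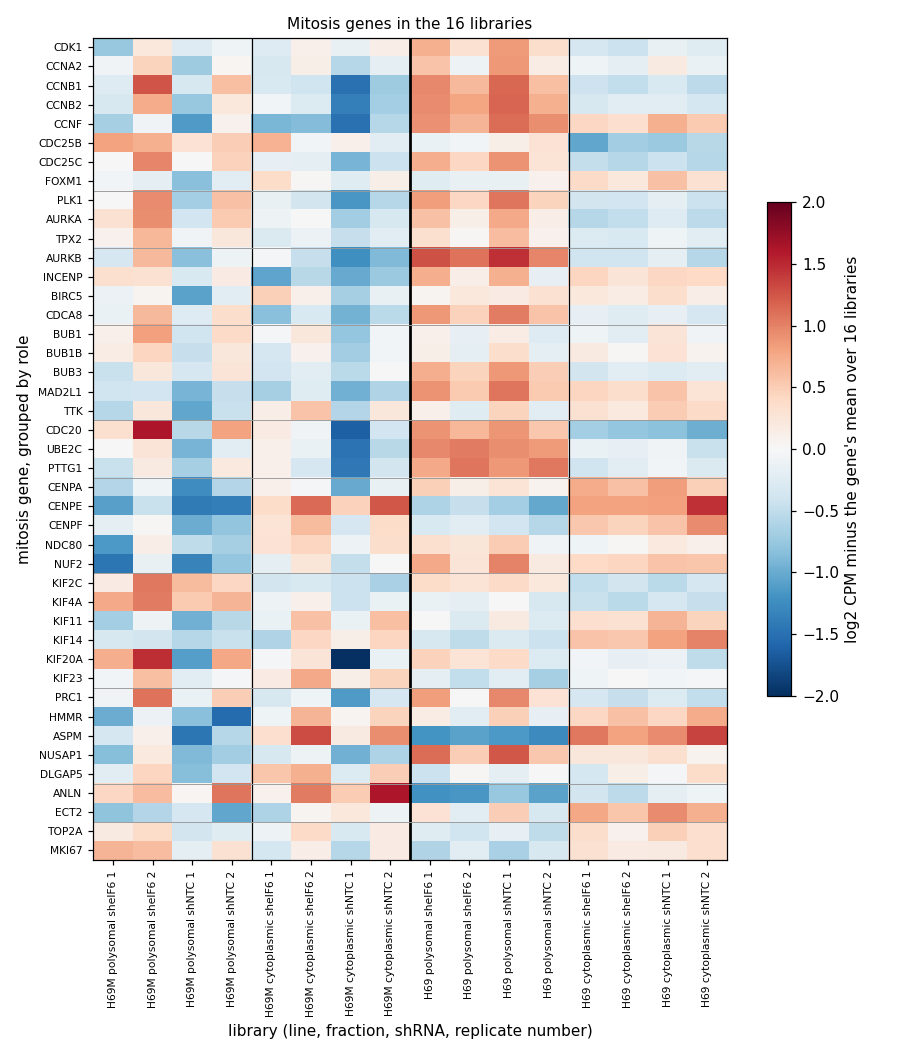
Log2 CPM of each of the 43 mitosis genes (rows, grouped by role) in each of the 16 libraries (columns), minus the gene's own mean over all libraries; red is above and blue below that mean. H69M shNTC replicate 1 is blue for most genes in both fractions, and the H69 polysomal libraries are red for the cyclins, AURKB, UBE2C and NUSAP1.

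One gene of each role, the one with the highest mean CPM, shows how the levels ran over the libraries. CCNB1, the B-type cyclin of CDK1, had 263 and 755 CPM in H69M sheIF6 polysomal RNA against 251 and 479 CPM in H69M shNTC, and 254 and 238 CPM against 112 and 193 CPM in cytoplasmic RNA. In H69 it had 611 and 495 CPM in sheIF6 polysomal RNA against 699 and 475 CPM in shNTC, and 237 and 224 CPM against 254 and 218 CPM in cytoplasmic RNA. The H69 polysomal libraries did not overlap with the H69 cytoplasmic ones, while in H69M the shNTC and sheIF6 libraries overlapped on polysomes and not in the cytoplasm. TPX2 had 369.9 and 552 CPM against 332 and 406 CPM in H69M polysomal RNA and 285 and 319 CPM against 252 and 298 CPM in cytoplasmic RNA, sheIF6 against shNTC. In H69 these were 435 and 354 CPM against 532 and 368 CPM, and 287 and 282 CPM against 329 and 297 CPM, a range shared by both lines. BUB3, a checkpoint protein that docks BUB1 and BUB1B on kinetochores, had 122 and 192 CPM against 130.1 and 198 CPM in H69M polysomal RNA, sheIF6 against shNTC, and 126 and 141 CPM against 113 and 164 CPM in cytoplasmic RNA. It had 275 and 224 CPM against 300.0 and 231 CPM in H69 polysomal RNA and 128 and 143 CPM against 137 and 142 CPM in cytoplasmic RNA. All 4 polysomal H69 libraries of BUB3 lay above all 12 others.

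ECT2, the exchange factor that starts furrowing at cytokinesis, had 81.8 and 95.2 CPM against 113 and 69.4 CPM in H69M polysomal RNA, sheIF6 against shNTC, and 92.7 and 149 CPM against 165 and 133 CPM in cytoplasmic RNA. In H69 it had 174 and 122 CPM against 199.8 and 114 CPM and 244 and 209.8 CPM against 273 and 233 CPM, with the 4 cytoplasmic H69 libraries above all 12 others. TOP2A, which untangles sister DNAs, had 360.2 and 409 CPM against 247 and 268 CPM in H69M polysomal RNA and 296 and 415 CPM against 256 and 356 CPM in cytoplasmic RNA. In H69 it had 269 and 241 CPM against 284 and 223 CPM and 404 and 339 CPM against 442 and 401 CPM. BIRC5 (survivin) had 174 and 192 CPM against 187 and 207 CPM in H69 polysomal RNA, sheIF6 against shNTC, and 194 and 186 CPM against 213 and 183 CPM in cytoplasmic RNA, and so barely varied in H69. PTTG1, securin, which holds separase back until anaphase, had 179.5 and 133 CPM in H69M sheIF6 cytoplasmic RNA and 62.5 and 131 CPM in shNTC, with replicate 1 higher than replicate 2 in the first and lower in the second. On polysomes it had 123 and 189 CPM against 106 and 192 CPM in H69M and 283 and 352 CPM against 308 and 349 CPM in H69, with all H69 libraries above all H69M libraries. In H69 cytoplasmic RNA it had 128 and 144 CPM in sheIF6 and 162 and 137 CPM in shNTC.

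H69M against H69, in the shNTC libraries, shows how the list stood in the 2 lines without knockdown of EIF6. On polysomes 11 of 43 genes were lower in H69M and 2 were higher (25.6% and 4.65%), where 15.6% of all genes tested were lower and 18.4% higher. In cytoplasmic RNA 6 were lower and 1 was higher (14.0% and 2.33%), where 14.1% of all genes tested were lower and 16.2% higher, so the share of lower calls there was that of all genes. The median log2 change of the 43 was -0.55 on polysomes and -0.48 in the cytoplasm, against 50.7% and 49.6% of all genes above 0; 10 and 7 of the 43 genes were above 0. NUSAP1, MAD2L1, CCNF and CENPA passed as lower in both fractions, and ANLN passed as higher in both. On polysomes the values ran with the length of the coding region. The 17 genes up to 1500 nucleotides had a median of -0.84, the 15 up to 3000 -0.47 and the 11 longer ones 0.02. In these classes 9, 2 and 0 genes passed as lower and 0, 0 and 2 as higher. All coding genes had medians of -0.22, 0.17 and 0.58, with 23.3%, 16.1% and 12.5% lower. The part of length in this comparison was not tested.

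NUSAP1 had 154 and 175 CPM in H69M shNTC polysomal RNA against 672 and 412 CPM in H69 (log2 -1.72, SE 0.347, adjusted p = 0.00232), and 145 and 185 CPM against 353 and 299 CPM in cytoplasmic RNA (log2 -0.98, SE 0.341, adjusted p = 0.0452). NUF2, a subunit of the NDC80 complex that grips microtubules, had 22.4 and 33.3 CPM against 113 and 63.8 CPM on polysomes (log2 -1.67, SE 0.402, adjusted p = 0.00690). AURKB, the kinase of the chromosomal passenger complex, had 40.4 and 67.3 CPM against 197 and 142 CPM there (log2 -1.65, SE 0.342, adjusted p = 0.00272). None of these libraries overlapped between the lines. MAD2L1 (MAD2), the inhibitor of CDC20 made at unattached kinetochores, had 45.8 and 63.0 CPM against 183 and 125 CPM on polysomes (log2 -1.50, SE 0.262, adjusted p = 0.000881) and 44.8 and 57.7 CPM against 129 and 105 CPM in the cytoplasm (log2 -1.20, SE 0.260, adjusted p = 0.00390). UBE2C, the ubiquitin-conjugating enzyme of the anaphase-promoting complex, had 57.5 and 93.8 CPM against 209 and 199 CPM on polysomes (log2 -1.43, SE 0.301, adjusted p = 0.00300). CCNF, cyclin F, a substrate receptor of an SCF ubiquitin ligase, had 40.7 and 94.9 CPM against 195 and 171 CPM on polysomes (log2 -1.43, SE 0.371, adjusted p = 0.0102) and 31.8 and 60.0 CPM against 147 and 129 CPM in the cytoplasm (log2 -1.59, SE 0.372, adjusted p = 0.00624). The H69M libraries numbered 1 were the lowest of the 4 for each of these genes in both fractions.

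In cytoplasmic RNA, INCENP, the scaffold of the passenger complex, had 58.1 and 69.7 CPM in H69M against 154 and 153 CPM in H69 (log2 -1.27, SE 0.304, adjusted p = 0.00713). CENPA, the histone H3 variant of centromeres, had 7.90 and 14.4 CPM against 28.3 and 22.2 CPM (log2 -1.18, SE 0.334, adjusted p = 0.0174), and CENPF, a large kinetochore protein, 182 and 295 CPM against 339.9 and 439 CPM (log2 -0.71, SE 0.246, adjusted p = 0.0449). On polysomes HMMR (-1.33), CCNB2 (-1.15), PTTG1 (-1.14), CENPA (-1.06) and BIRC5 (-0.83) were also past the limit as lower. ANLN, anillin, which links the contractile ring to the membrane, went the other way: it had 128 and 262 CPM in H69M against 73.4 and 59.2 CPM in H69 on polysomes (log2 1.55, SE 0.403, adjusted p = 0.0102), and 178 and 382 CPM against 108 and 117 CPM in the cytoplasm (log2 1.31, SE 0.400, adjusted p = 0.0250). KIF4A, a chromosome-bound kinesin, was also higher on polysomes, with 159.7 and 178 CPM against 109.9 and 89.2 CPM (log2 0.76, SE 0.197, adjusted p = 0.0102). By role, the anaphase genes (median log2 -1.14 on polysomes) and the kinetochore genes (-0.84) were lowest, and no gene of the spindle pole kinase group (PLK1, AURKA, TPX2) passed in either fraction.

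Counts of these calls depended on single libraries and on the fit. With the replicate number as a block within each line, 19 genes were lower and 2 higher on polysomes (20.1% and 21.4% of all genes) and 13 lower and 1 higher in the cytoplasm (17.9% and 19.5%). Calls over all genes, higher and lower together, fell with the omissions named here too. With every library in, 30.2% of all genes passed in the cytoplasm, and 7859 of 23100 genes on polysomes. Without H69M shNTC cytoplasmic replicate 1, 2 mitosis genes passed in the cytoplasm, where 19.0% of all genes did, and the values of CENPF, NUSAP1 and CENPA were -0.40, -0.81 and -0.81. When a cytoplasmic shNTC library of H69 was left out, 3 passed (replicate 1) or 4 (replicate 2), where 18.3% and 19.3% of all genes did. On polysomes 8 passed without H69M shNTC polysomal replicate 1 and 7 without H69 shNTC polysomal replicate 1, where 5270 of 24938 and 5474 of 24937 genes tested did. MAD2L1 in both fractions and NUSAP1, AURKB and UBE2C on polysomes passed under every setting and omission run, and each other named gene was lost under at least 1. CCNF and INCENP were lost in the cytoplasm without H69M shNTC replicate 1 (-1.20 and -1.14, adjusted p = 0.0674 and 0.0623), and CCNF on polysomes without that replicate (-0.95, adjusted p = 0.0886). NUF2 was lost without replicate 1 of either line, with -1.20 (adjusted p = 0.0706) without that of H69, and KIF4A without replicate 2 of H69 or H69M (0.62 and 0.68, adjusted p = 0.0951 and 0.0573). The medians were -0.22 and -0.77 in the cytoplasm without H69M shNTC replicates 1 and 2, and -0.30 and -0.86 on polysomes. ANLN rested on H69M replicate 2: without it the values were 0.94 on polysomes and 0.66 in the cytoplasm (adjusted p = 0.109 and 0.277). It was also lost without H69 shNTC polysomal replicate 2 (1.41, adjusted p = 0.0720) and without either H69 shNTC cytoplasmic library (1.26 and 1.37, adjusted p = 0.125 and 0.0939).

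**Figure D2:**
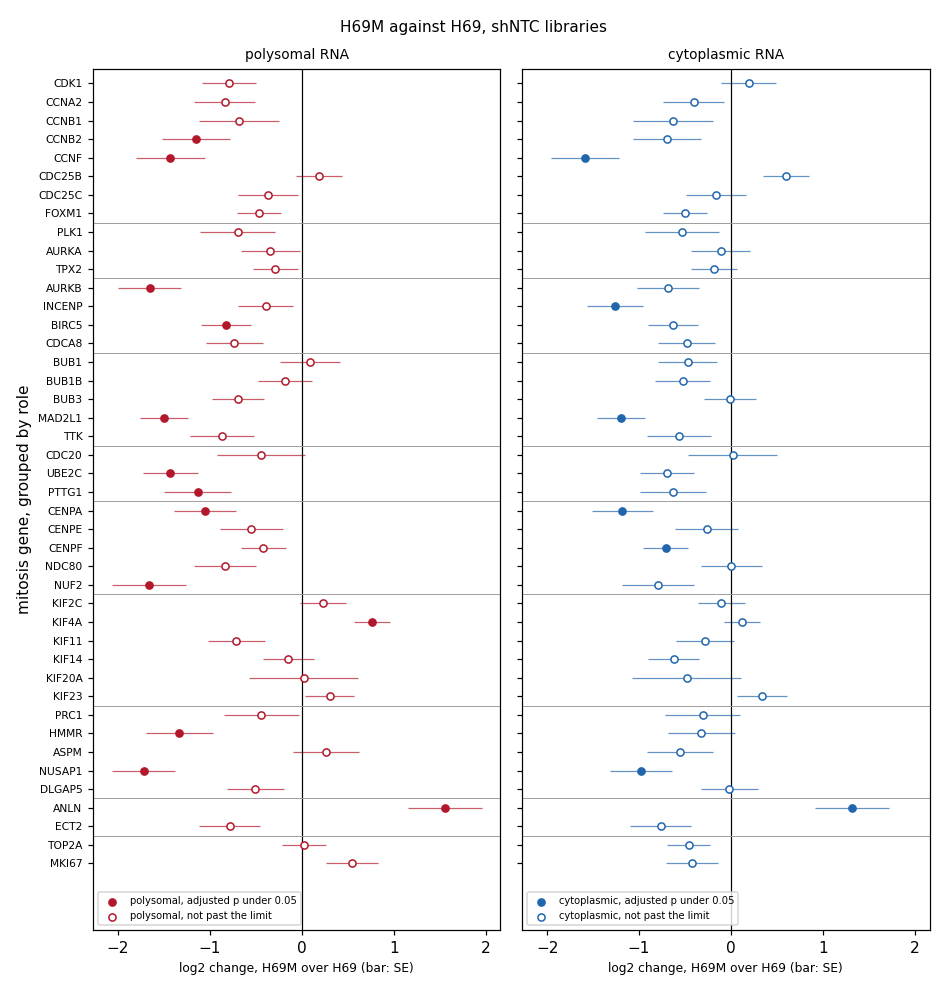
Log2 change of each mitosis gene in H69M over H69, shNTC libraries (n = 2 each), in polysomal RNA (left) and cytoplasmic RNA (right); bars are SE from edgeR, and filled points have an adjusted p under 0.05. Most points lie left of 0, with ANLN at 1.55 and 1.31 to the right.

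Polysomal against cytoplasmic RNA, within the shNTC libraries of a line, shows which mitosis mRNAs made up a larger share of the RNA on polysomes than of all cytoplasmic RNA. In H69M, 2 of 43 genes were higher on polysomes and 4 lower (4.65% and 9.30%, where 2.16% and 2.54% of all genes were). In H69, 6 were higher and 4 lower (14.0% and 9.30%, where 6.63% and 5.20% of all genes were). In both lines the genes fell on both sides: 24 of 43 were above 0 in each, where 48.4% of all genes were in H69M and 41.9% in H69, with medians of 0.23 and 0.24. Scaled by total library size, which puts the median of all genes at -0.25 in H69M and -0.49 in H69, the medians of the 43 were -0.02 and -0.12, below 0 but above those of all genes.

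CENPE was the lowest on polysomes in H69M, with 8.10 and 8.28 CPM against 29.8 and 51.1 CPM in the cytoplasm (log2 -2.30, SE 0.359, adjusted p = 0.00640), and in H69 it had 13.4 and 10.6 CPM against 37.9 and 59.2 CPM (log2 -2.02, SE 0.354, adjusted p = 0.00510). ASPM, which focuses spindle poles, had 26.9 and 49.5 CPM against 83.3 and 140.2 CPM in H69M (log2 -1.55, SE 0.367, adjusted p = 0.0335) and 33.3 and 30.5 CPM against 141 and 187 CPM in H69 (log2 -2.37, SE 0.378, adjusted p = 0.00373). CENPF had 115 and 132 CPM against 182 and 295 CPM in H69M (log2 -0.95, SE 0.248, adjusted p = 0.0475) and 176 and 155 CPM against 339.9 and 439 CPM in H69 (log2 -1.24, SE 0.249, adjusted p = 0.00824). All 3 have coding regions of over 3000 nucleotides, at 8103, 10431 and 9342. The polysomal libraries of these genes lay below the cytoplasmic ones of the same line without overlap. HMMR, a spindle-associated protein first described as a hyaluronan receptor, was lower in H69M, with 25.8 and 15.9 CPM against 47.8 and 62.7 CPM (log2 -1.41, SE 0.367, adjusted p = 0.0472), and KIF14, a kinesin of the midbody, in H69, with 29.6 and 26.8 CPM against 63.1 and 72.3 CPM (log2 -1.27, SE 0.280, adjusted p = 0.0123).

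Other genes passed as higher on polysomes in each line, which is no test of a difference. In H69, AURKB had 197 and 142 CPM on polysomes against 63.2 and 48.7 CPM (log2 1.60, SE 0.341, adjusted p = 0.0104), CCNB2, a B-type cyclin, 303 and 222 CPM against 115 and 105 CPM (log2 1.26, SE 0.373, adjusted p = 0.0464), and UBE2C 209 and 199 CPM against 105 and 80.3 CPM (log2 1.14, SE 0.298, adjusted p = 0.0273). CDC25C and CDC25B, phosphatases that switch CDK1 on, and CDCA8, borealin of the passenger complex, were the others past the limit. CDC25C had 51.2 and 33.2 CPM against 20.4 and 18.7 CPM (log2 1.11, SE 0.329, adjusted p = 0.0456). CDCA8 had 127 and 92.7 CPM against 55.8 and 49.4 CPM (log2 1.06, SE 0.314, adjusted p = 0.0456), and CDC25B 331 and 371 CPM against 181 and 208 CPM (log2 0.85, SE 0.250, adjusted p = 0.0448). In H69M, KIF2C, a kinesin that takes microtubules apart, had 119 and 102 CPM on polysomes against 56.7 and 48.7 CPM (log2 1.07, SE 0.255, adjusted p = 0.0337), and KIF4A 159.7 and 178 CPM against 82.3 and 101 CPM (log2 0.88, SE 0.198, adjusted p = 0.0273). CDC20 had the largest value in H69, with 263 and 207 CPM on polysomes against 80.1 and 72.3 CPM and no overlap, without passing the limit (log2 1.62, SE 0.495, adjusted p = 0.0525), and was picked after its values were seen. The difference itself, polysomal over cytoplasmic in H69M minus that in H69, was past the limit for 0 of 43 genes in edgeR (0% of all genes), DESeq2 (1.25%) and limma-voom (0%). It was above 0 for 15 of the 43 genes and 54.9% of all genes. In edgeR 3 had an unadjusted p under 0.05: MKI67, the proliferation antigen Ki-67 (0.97), KIF4A (0.64) and CDK1 (-0.99), where 9.21% of all genes had one, with adjusted p = 0.491, 0.521 and 0.509.

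**Figure D3:**
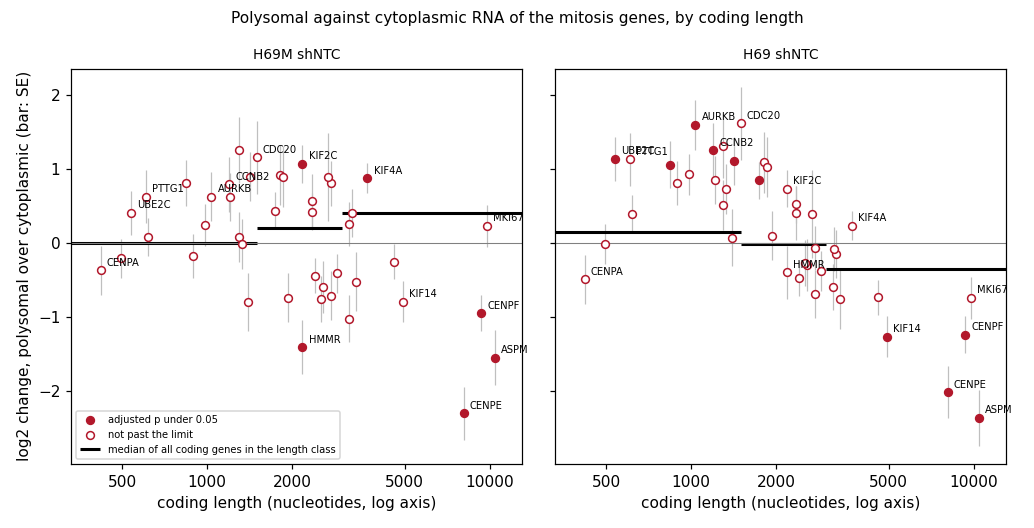
Log2 change of each mitosis gene, polysomal over cytoplasmic RNA in shNTC libraries, against its coding length on a log axis, in H69M (left) and H69 (right); bars are SE, filled points have an adjusted p under 0.05, and black lines give the median of all coding genes tested in 3 length classes. In H69 the filled points run from AURKB at 1.60, with a coding length of 1035 nucleotides, to ASPM at -2.37, with 10431.

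The polysomal share of the mitosis genes ran with their coding length (GENCODE v29, longest coding region of a gene). In H69 the 17 genes up to 1500 nucleotides had a median log2 change of 0.93, the 15 up to 3000 nucleotides 0.10, and the 11 longer ones -0.74, with 5, 1 and 0 genes past the limit as higher and 0, 0 and 4 as lower. All coding genes tested had medians of 0.15, -0.01 and -0.35 in these classes. In H69M the medians of the mitosis genes were 0.41, 0.42 and -0.52, while those of all coding genes ran the other way, at 0.01, 0.21 and 0.41. There 0, 1 and 1 mitosis genes passed as higher, where 0.989%, 3.62% and 9.43% of all coding genes did. As lower, 0, 1 and 3 passed, where 3.36%, 2.98% and 3.46% did. KIF4A, with 3696 coding nucleotides, is the higher call in the longest class, so the H69M calls did not split by length as in H69. Across the 43 genes the Pearson correlation of the change with log2 coding length was -0.71 in H69 and -0.42 in H69M (Spearman -0.725 and -0.366), and across 15208 coding genes -0.102 and 0.148 (Spearman -0.167 and 0.214). The genes share the same libraries and are not independent replicates, so no p is given. The GC content of the transcripts moved with it too: its Pearson correlation with the change was 0.55 in H69 and 0.68 in H69M for the 43 genes, and 0.291 and 0.333 for all coding genes, while length and GC of the 43 had a Spearman correlation of -0.351. The part of GC content in the relation to length was not tested. Both relations were noticed after the values were seen.

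The polysome counts moved with the fit as well. With the replicate block within each line, 8 genes were higher and 6 lower in H69M (6.08% and 5.02% of all genes), and 14 higher and 8 lower in H69 (9.87% and 9.01%). DESeq2 called 8 genes in H69M and 17 in H69 (17.6% and 21.5% of all genes). Over all genes, 4.70% passed in H69M and 11.8% in H69, higher and lower together, with every library in. In H69M, 0 of the mitosis genes and 0 of all genes passed when the line was fitted alone, so that 0 does not set the mitosis genes apart. The calls in H69M, of these and of other genes, thus rest on a spread estimated together with the H69 libraries. Without shNTC cytoplasmic replicate 2 or shNTC polysomal replicate 2, 0 passed, where 0.442% and 0.726% of all genes did. Without shNTC cytoplasmic replicate 1, 3 passed and without shNTC polysomal replicate 1, 1 passed, where 1.16% and 1.94% of all genes did. Leaving out a cytoplasmic library of H69, which enters only the shared spread, left 1 to 2 in H69M, where 2.02% to 2.60% of all genes passed. In H69, 22 passed when the line was fitted alone (4318 of 20585 genes tested). Without shNTC cytoplasmic replicates 1 and 2, 3 and 2 passed (1.75% and 2.50% of all genes), and without shNTC polysomal replicates 1 and 2, 2 and 4 (3.18% and 6.13%). In each of the 4 fits without a sheIF6 library of H69, 6 passed, where 7.85% to 10.0% of all genes did. Only CENPE and ASPM in H69 passed in every setting and omission run; each other call in either line, CENPE in H69M included (adjusted p = 0.0512 without shNTC cytoplasmic replicate 2), was lost under at least 1. The H69M median was -0.16 without shNTC polysomal replicate 2, -0.08 without shNTC cytoplasmic replicate 1 and 0.47 without shNTC polysomal replicate 1, and the H69 median 0.07 and 0.43 without shNTC polysomal replicates 1 and 2.

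The knockdown of EIF6 in H69M was compared within each fraction. No mitosis gene passed the limit in edgeR in either fraction (0 of 43, where 0.0649% of all genes passed on polysomes and 0.156% in cytoplasmic RNA). Nor did any pass on polysomes by DESeq2 (1.85% of all genes), limma-voom (0.182%) or the blocked fit (0.879%), or in the cytoplasm (2.65%, 0.442% and 1.16%). An unadjusted p under 0.05 in edgeR was had by 5 genes on polysomes and 4 in the cytoplasm, where 8.15% and 11.0% of all genes had one. The values leaned one way: 39 of 43 genes were above 0 on polysomes (90.7%, where 47.0% of all genes were) and 36 in the cytoplasm (83.7%, where 49.2% were), with medians of 0.43 and 0.29. The sheIF6 libraries lay above both shNTC libraries for 15 and 18 genes (34.9% and 41.9%), where 15.9% and 20.4% of all genes did, and below both for 0 of 43 in either fraction, where 16.7% and 19.3% of all genes did. The genes share their libraries, so these counts describe the libraries and are no test of the list. The H69M shNTC libraries used here also enter H69M against H69, with opposite sign. Low values in them would lower that comparison and raise this one, so the 2 results are not independent. In the cytoplasm the 17 genes with coding regions up to 1500 nucleotides had a median of 0.55. The 15 up to 3000 nucleotides and the 11 longer ones had 0.21 each. All coding genes fell with length too, with medians of 0.09, -0.07 and -0.22. On polysomes the medians of the mitosis genes were 0.49, 0.37 and 0.46. The part of length in the lean was not tested.

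CENPF had the smallest p on polysomes, with 201 and 233 CPM in H69M sheIF6 against 115 and 132 CPM in shNTC (log2 0.81, SE 0.247, adjusted p = 0.352). TOP2A had 360.2 and 409 CPM against 247 and 268 CPM (log2 0.58, SE 0.237, adjusted p = 0.552), and DLGAP5, a spindle-stabilising protein also called HURP, 66.1 and 103 CPM against 42.6 and 58.7 CPM (log2 0.74, SE 0.312, adjusted p = 0.570). The groups did not overlap for any of these. In cytoplasmic RNA, UBE2C had the smallest p, with 118 and 101 CPM in sheIF6 against 39.6 and 74.6 CPM in shNTC (log2 0.94, SE 0.298, adjusted p = 0.293). BIRC5 had 232 and 179.9 CPM against 106 and 151 CPM (log2 0.68, SE 0.270, adjusted p = 0.385), and AURKB 70.2 and 52.3 CPM against 30.7 and 38.9 CPM (log2 0.82, SE 0.336, adjusted p = 0.399). On polysomes these 3 had 109 and 131 CPM against 57.5 and 93.8 CPM for UBE2C, 155 and 173 CPM against 79.6 and 142 CPM for BIRC5 and 56.9 and 113 CPM against 40.4 and 67.3 CPM for AURKB, and the groups overlapped for AURKB there but not for UBE2C or BIRC5.

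By role, the median log2 values on polysomes and in the cytoplasm were 0.66 and 0.93 for anaphase entry (CDC20, UBE2C, PTTG1), 0.65 and 0.47 for spindle assembly, 0.57 and 0.26 for kinetochore and centromere, 0.46 and 0.44 for the chromosomal passenger complex and for the spindle pole kinases, 0.37 and 0.36 for the CDK1 switch with FOXM1, 0.37 and 0.33 for the checkpoint, 0.34 and 0.21 for the kinesins, 0.58 and 0.14 for TOP2A and MKI67, and -0.09 and -0.42 for cytokinesis. Every gene of the anaphase, passenger, spindle pole kinase and spindle assembly groups, and both TOP2A and MKI67, was above 0 in both fractions.

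The genes with the largest values were picked after the values were seen. KIF20A, a kinesin of the central spindle, had 225 and 375 CPM in sheIF6 against 63.1 and 230.4 CPM in shNTC on polysomes (log2 1.03, SE 0.597, adjusted p = 0.700) and 133 and 161 CPM against 33.9 and 124 CPM in the cytoplasm (log2 0.90, SE 0.596, adjusted p = 0.612). CDC20, the activator of the anaphase-promoting complex, had 178 and 435 CPM against 96.5 and 248 CPM (log2 0.83, SE 0.486, adjusted p = 0.701) and 159 and 135 CPM against 46.0 and 109 CPM (log2 0.93, SE 0.487, adjusted p = 0.516). In both genes shNTC replicate 1 was the lowest library of its fraction, and the groups overlapped on polysomes but not in the cytoplasm. ASPM had 58.1 and 79.0 CPM against 26.9 and 49.5 CPM on polysomes (log2 0.84, SE 0.362, adjusted p = 0.576), and CCNB2 130.2 and 111 CPM against 52.0 and 84.2 CPM in the cytoplasm (log2 0.83, SE 0.370, adjusted p = 0.439). The 2 cytokinesis genes stood below 0 in both fractions: ANLN had 165 and 191 CPM in sheIF6 against 128 and 262 CPM in shNTC on polysomes (log2 -0.13, SE 0.394, adjusted p = 0.984) and 132 and 256 CPM against 178 and 382 CPM in the cytoplasm (log2 -0.53, SE 0.395, adjusted p = 0.657). ECT2 had log2 changes of -0.04 and -0.30. The groups overlapped for both genes in both fractions, and the ANLN values were 0.48 on polysomes and 0.13 in the cytoplasm without shNTC replicate 2. CDK1, the kinase itself, had 72.0 and 140.0 CPM against 101 and 114 CPM on polysomes and 102 and 131 CPM against 109 and 134 CPM in the cytoplasm, with log2 changes of -0.02 and -0.06.

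**Figure D4:**
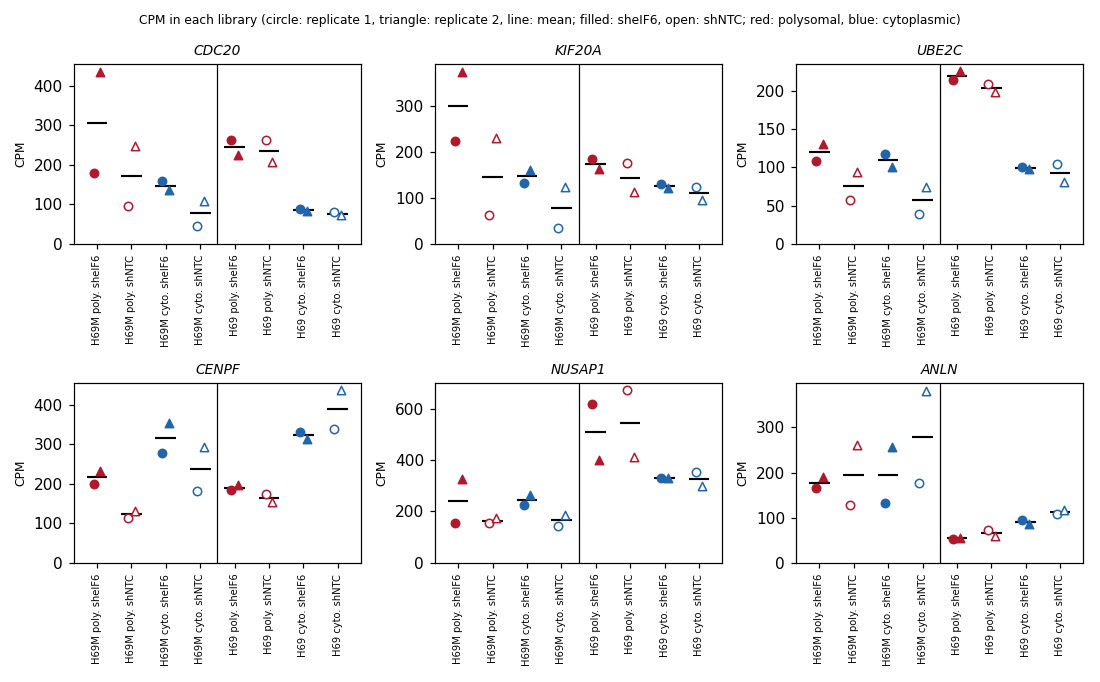
CPM of 6 mitosis genes in each library, with circles for replicate 1 and triangles for replicate 2, filled for sheIF6 and open for shNTC, red for polysomal and blue for cytoplasmic RNA; black lines are means of 2 libraries. In H69M, CDC20 and KIF20A are lowest in the shNTC replicate 1 libraries, and ANLN is higher in H69M than in H69.

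The lean in H69M was present in both numbered pairs and depended in size on single libraries. Taken pair by pair, the median log2 ratio of sheIF6 over shNTC was 0.46 in pair 1 and 0.45 in pair 2 on polysomes (36 and 39 genes above 0), and 0.37 and 0.24 in the cytoplasm (35 and 34 above 0). With 1 library left out, which breaks a numbered pair, the fitted median on polysomes was 0.07 without sheIF6 replicate 2 and 0.21 without shNTC replicate 1. It was 0.72 without sheIF6 replicate 1 and 0.68 without shNTC replicate 2. In the cytoplasm it was 0.12 without shNTC replicate 1, 0.19 without sheIF6 replicate 2, 0.47 without sheIF6 replicate 1 and 0.53 without shNTC replicate 2. The summed level of the list was 5558 and 8271 CPM in H69M sheIF6 polysomal replicates 1 and 2 against 4141 and 6129 CPM in shNTC, and 5360 and 5949 CPM against 3765 and 5365 CPM in the cytoplasm. Replicate 2 was above replicate 1 for 38 and 39 of 43 genes in H69M sheIF6 and shNTC polysomal RNA and for 31 and 40 in cytoplasmic RNA, where 46.9% to 48.4% of all genes were. In H69 it was above for only 11 and 6 genes on polysomes and 13 and 12 in the cytoplasm. The H69M libraries numbered 2 also held more INSM1 and CHGA than those numbered 1 in all 4 groups. The fibroblast markers COL1A1, PDGFRB and DCN, at most 2.95 CPM in H69, were higher in those libraries too. Their sums in replicates 1 and 2 were 9486.5 and 19144 CPM in shNTC and 10149 and 15630 CPM in sheIF6 on polysomes. In the cytoplasm they were 6302 and 9489 CPM in shNTC and 6582 and 7724 CPM in sheIF6. In sheIF6, INSM1 was at 155 CPM in replicate 2 and 23.9 CPM in replicate 1 on polysomes, and at 28.4 and 2.30 CPM in the cytoplasm. Nuclear-retained RNAs (4 genes) moved opposite to the summed mitosis genes between replicates in all 8 groups. In H69M replicates 1 and 2 they summed to 286 and 137 CPM in shNTC and 409 and 233 CPM in sheIF6 on polysomes. In the cytoplasm they summed to 1242.5 and 469 CPM and to 784 and 665 CPM. In H69 they summed to 55.2 and 262 CPM and 66.4 and 204 CPM on polysomes. In the H69 cytoplasm these were 454 and 1082 CPM and 504 and 701 CPM. The part of these differences between replicates in the levels of the mitosis genes was not tested.

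In H69 the mitosis genes stood near or just below 0 under knockdown of EIF6. On polysomes 0 of 43 genes passed in edgeR (0.00433% of all genes), DESeq2 (0.494%) or limma-voom (0%), and 0 had an unadjusted p under 0.05 (4.14%). In the cytoplasm 0 passed in edgeR (0%), DESeq2 (0.382%) or limma-voom (0%), and 0 had an unadjusted p under 0.05 (3.01%). The medians were -0.09 on polysomes and -0.10 in the cytoplasm, with 14 and 8 of 43 genes above 0 (32.6% and 18.6%), where 46.1% and 46.4% of all genes were. In the cytoplasm the sheIF6 libraries lay below both shNTC libraries for 12 genes and above them for 1 (27.9% and 2.33%), where 17.6% and 16.7% of all genes did; on polysomes they did so for 4 and 3 genes (9.30% and 6.98%), where 11.3% and 11.4% did. KIF14 had the smallest p in the cytoplasm, with 53.5 and 52.3 CPM in H69 sheIF6 against 63.1 and 72.3 CPM in shNTC (log2 -0.36, SE 0.275, adjusted p = 1.00). CENPE, with 37.5 and 37.5 CPM against 37.9 and 59.2 CPM (log2 -0.37, SE 0.341, adjusted p = 1.00), and CENPF, with 332 and 314 CPM against 339.9 and 439 CPM (log2 -0.27, SE 0.245, adjusted p = 1.00), came next; the coding regions of all 3 are over 3000 nucleotides. On polysomes CDC25B had 278 and 294 CPM against 331 and 371 CPM (log2 -0.29, SE 0.248, adjusted p = 1.00), and CENPE and CENPF stood above 0, at 0.30 and 0.21. The polysomal median was 0.17 without shNTC polysomal replicate 1, 0.05 without sheIF6 polysomal replicate 2, -0.20 without sheIF6 polysomal replicate 1 and -0.27 without shNTC polysomal replicate 2. The cytoplasmic median was -0.04 and -0.16 without shNTC cytoplasmic replicates 1 and 2, and -0.06 without sheIF6 cytoplasmic replicate 2.

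**Figure D5:**
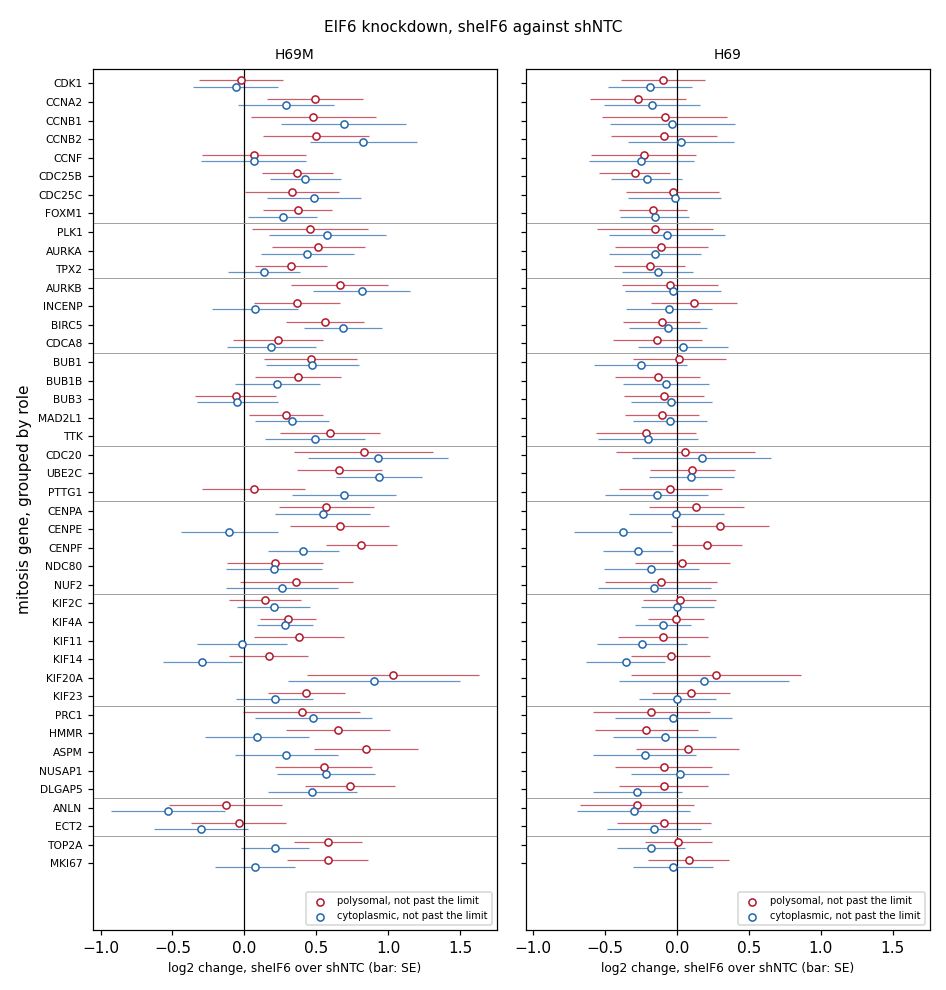
Log2 change of each mitosis gene, sheIF6 over shNTC, in H69M (left) and H69 (right), with polysomal RNA in red and cytoplasmic RNA in blue; bars are SE from edgeR, and open points are not past the limit, which holds for every point shown. In H69M 39 polysomal and 36 cytoplasmic values are above 0, and in H69 14 and 8.

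The knockdown in H69M minus that in H69 tests whether the response differed between the lines. No mitosis gene passed (0 of 43 in edgeR, DESeq2 and limma-voom, where 0.00433% of all genes passed in edgeR on polysomes and 0.0303% in the cytoplasm), and 0 had an unadjusted p under 0.05 (5.09% and 4.93% of all genes). DESeq2 called 0.648% and 0.523% of all genes and limma-voom 0%. All 43 differences were above 0 on polysomes, where 48.0% of all genes were, from 0.03 for BUB3 upward, with a median of 0.51. In the cytoplasm 40 were above 0, where 51.5% of all genes were, with a median of 0.42. The smallest p was that of CDC25B on polysomes (0.66, SE 0.351, adjusted p = 1.00 by edgeR over all genes) and that of UBE2C in the cytoplasm (0.84, SE 0.418, adjusted p = 1.00). The polysomal median was 0.15 without H69M sheIF6 polysomal replicate 2 and 0.24 without H69M shNTC polysomal replicate 1 or H69 shNTC polysomal replicate 1, and 0.76 without H69M shNTC polysomal replicate 2. The cytoplasmic median was 0.21 and 0.68 without H69M shNTC cytoplasmic replicates 1 and 2.

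The change of polysomal RNA under knockdown, minus the change of cytoplasmic RNA, measures whether the polysomal share of an mRNA differed. For 0 of 43 genes it passed in edgeR, DESeq2 or limma-voom in either line, and 0 had an unadjusted p under 0.05. Of all genes, 0% passed in edgeR and limma-voom in both lines, 0.00433% in H69M and 0.0130% in H69 by DESeq2, and 1.70% and 1.66% had an unadjusted p under 0.05. The medians were 0.04 in H69M and 0.02 in H69, and with 1 library left out ran from -0.26 (sheIF6 polysomal replicate 2) to 0.38 (shNTC polysomal replicate 2 or sheIF6 polysomal replicate 1) in H69M and from -0.14 to 0.25 (shNTC polysomal replicates 2 and 1) in H69, with 27 and 24 genes above 0, where 47.9% and 48.8% of all genes were. By coding length, the 11 genes over 3000 nucleotides had medians of 0.40 in H69M and 0.19 in H69, and the 17 up to 1500 nucleotides -0.04 in both. These values and the polysomal share of the shNTC libraries use the same shNTC libraries, with opposite sign. All coding genes had medians of 0.20 and 0.03 over 3000 nucleotides and -0.16 and -0.01 up to 1500. CENPE had the smallest p in both lines, at 0.77 (SE 0.484, adjusted p = 1.00) in H69M and 0.67 (SE 0.484, adjusted p = 1.00) in H69.

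Other cell cycle genes give the setting. None of 50 further G2 and M genes, 37 DNA replication genes, 15 subunits of the anaphase-promoting complex and 11 CDK inhibitors and G1 cyclins passed in edgeR in either H69M knockdown comparison. Their medians on polysomes and in the cytoplasm were 0.20 and 0.15 for the G2 and M genes, -0.06 and 0.08 for the replication genes, -0.10 and 0.14 for the complex and 0.04 and 0.07 for the inhibitors and G1 cyclins. CCND1, cyclin D1, was the only one past the limit with the replicate block: its log2 change was -1.46 on polysomes (adjusted p = 0.269, blocked 0.0334) and -1.52 in the cytoplasm (adjusted p = 0.201, blocked 0.0207). Between the lines on polysomes, where 15.6% of all genes were lower and 18.4% higher in H69M, 14 of the 50 G2 and M genes were lower and 2 higher, with NEK2, a centrosome kinase, at -1.61 (adjusted p = 0.00296) and ESPL1, separase, at 0.94 (adjusted p = 0.00413). Of the replication genes 19 of 37 were lower and 0 higher there, with the helicase subunit gene MCM7 at -1.44 (adjusted p = 0.00111). Of the 15 subunits of the complex 2 were higher and 1 lower there, and of the 11 inhibitors and G1 cyclins 4 were higher and 4 lower. CCND1 (4.59) and CDKN2B (3.01), a CDK4 and CDK6 inhibitor, were higher in H69M on polysomes. In the cytoplasm, where 14.1% of all genes were lower and 16.2% higher, 10 of the 50 G2 and M genes were lower and 1 higher, and 7 of the 37 replication genes were lower and 2 higher. Of the complex 1 of 15 was lower and 0 higher there, and of the inhibitors and G1 cyclins 2 of 11 were lower and 4 higher. On polysomes against the cytoplasm in H69, where 6.63% of all genes were higher and 5.20% lower, 14 of the 37 replication genes were higher and 0 lower, with TK1, thymidine kinase, at 1.59 (adjusted p = 0.00364), while 3 of the 50 G2 and M genes were higher and 5 lower. In H69M, where 2.16% of all genes were higher and 2.54% lower, 4 of those 50 were higher and 8 lower, with SGO2, shugoshin, at -2.24 (adjusted p = 0.0225), and of the replication genes 2 were higher and 0 lower. Of the 15 subunits of the complex 2 were higher in H69 and 3 in H69M, and of the 11 inhibitors and G1 cyclins 4 and 0, with 0 lower in either.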

How the data were processed

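Total counts per gene were deposited by the authors for 16 libraries, with STAR, HTSeq and GRCh38 named in the submitters' processing notes; the strand setting and annotation release are not given in the sources used here. From these counts, genes were filtered with filterByExpr (minimum count 10), scaled by TMM and tested with edgeR's quasi-likelihood test (edgeR 4.0.16, R 4.3.3) on 8 group means over all 23100 genes, with Benjamini-Hochberg adjustment and a limit of 0.05; limma 3.58.1 (voom) and DESeq2 1.42.0 were alternatives. All 16 libraries share 1 estimate of spread. Residual deviations of equally numbered libraries correlated at 0.172 to 0.578 in H69M (6 pairs of groups) and 0.168 to 0.280 in H69 (6 pairs), so the numbers pair libraries within each line; between the lines (16 pairs) they correlated at -0.107 to 0.0457. No replicates agreed within sampling noise (chi-square per degree of freedom 21.2 or more). With totals of 36005326 to 87269772, counting error is small beside the spread of replicates. Genes named were the 3 with the smallest p in each knockdown comparison, up to 6 calls of the largest change in each direction in the others, and the most abundant of each role; others are marked as picked later. The mitosis genes and all lists were chosen with earlier results of these data known. Coding lengths, GC content and exons came from GENCODE v29, promoters from RefSeq. The neuroendocrine marker list held 1 further gene, which is not reported here, so its sum is not given.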

Additional observations from a re-analysis of the deposited data

How the results depend on the processing

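The count of mitosis genes past the limit stayed at 0 in the knockdown comparisons, in the differences of knockdown and in the polysomal minus cytoplasmic differences under every setting run. Over the settings other than leaving 1 library out, it ran from 5 to 14 between the lines in the cytoplasm and from 13 to 21 on polysomes. For polysomal against cytoplasmic RNA it ran from 0 to 14 in H69M and from 7 to 22 in H69. Between the lines in the cytoplasm 7 genes passed, 12 with scaling by total library size, 14 with the replicate block, and 2 to 8 with 1 library left out; on polysomes 13 passed, 21 with the replicate block and 7 to 15 with 1 library left out. With 1 library left out, 18.3% to 28.7% of all genes passed in the cytoplasm and 21.1% to 31.0% on polysomes, against 30.2% in the cytoplasm and 7859 of 23100 genes on polysomes with every library in. On polysomes against the cytoplasm 6 passed in H69M, 14 with the replicate block, 0 in a fit of that line alone and 0 to 6 with 1 library left out; in H69 10 passed, 22 with the replicate block, 22 in a fit of that line alone, 17 by DESeq2 and 2 to 14 with 1 library left out. Over all genes 0 passed in the fit of H69M alone and 4318 of 20585 in that of H69; with 1 library left out 0.442% to 4.43% passed in H69M and 1.75% to 11.0% in H69, against 4.70% and 11.8% with every library in. Under the replicate block no call of the 43 genes was lost or gained in the knockdown comparisons. The knockdown values of ANLN and ECT2 in H69M, neither past the limit, changed sign with 1 library left out. ANLN ran from -0.54 to 0.48 on polysomes and from -1.08 to 0.13 in the cytoplasm, above 0 in each without shNTC replicate 2. ECT2 ran from -0.35 to 0.36 on polysomes, with 0.07 without sheIF6 replicate 1, and from -0.67 to 0.0071 in the cytoplasm. The cause of these changes was not tested. Each of these genes had at least 266 counts in every library, so counting error is small beside the spread between replicates.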
